A study of Mus musculus with 6 samples.

Results

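The Isg15 conjugation pathway was described through 5 genes of the 20325 listed by symbol in the files, taken by name. They are Isg15, which encodes the ubiquitin-like modifier ISG15, Ube2l6, which encodes its E2 conjugating enzyme, Herc6, which encodes its main E3 ligase in the mouse, Trim25, which encodes a RING ligase that acts on RIG-I, and Usp18, which encodes the protease that removes ISG15 from proteins. All 5 genes passed the count filter and were among the 11048 genes tested, Usp18 only through 2 libraries in which it was high. The cells were mouse pre-iPSC lines, that is partially reprogrammed cells, called pre3 and pre2-2. Within each line, cells were transfected with an siRNA against Tet1 (siTet1), transfected with a control siRNA, or left untransfected. Each of the 6 combinations gave 1 messenger RNA library, so each treatment had 2 libraries, 1 per line. Tet1 encodes a dioxygenase that oxidises 5-methylcytosine, and the design asks how its knockdown changes expression in these cells.

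All groups shared the remaining conditions. The labels give OG2 transgenic embryonic fibroblasts of a mixed strain at passage 10 (in parts, 1/2 129SVJ, 3/8 C57B6 and 1/8 CBA), whereas the series text calls the cells pre-iPSCs. OG2 mice carry a GFP reporter under the Pou5f1 promoter. All cells were grown in embryonic stem cell medium with LIF, and vitamin C at 50 µg/ml was added after transfection. The siRNA is given as Tet siRNA in one label and as siTet1 in the titles, and was taken as Tet1. The times differ between the labels: vitamin C at 16 h and RNA another 32 h later in the series text, but 48 h from transfection with 36 h of vitamin C in the sample text. Nothing says that the libraries of a line came from separate cultures. The p-values therefore measure only the spread left between these libraries after line and treatment are fitted. That spread holds how far the lines differ in their response, and it may also be technical. In bulk RNA, fewer cells of a type and less RNA per cell cannot be told apart, for every difference given here.

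ISG15 is a small protein built from a pair of ubiquitin-like domains. It is attached to target proteins by an E1 enzyme (UBA7), the E2 enzyme UBE2L6 and an E3 ligase, which is HERC6 in mouse cells and HERC5 in human cells, and USP18 takes it off again. Genes of this system are classic targets of type I interferon, through the ISGF3 complex, which holds STAT2 and IRF9. USP18 also binds the interferon receptor subunit IFNAR2 and dampens signalling from it, and TRIM25 attaches ubiquitin to RIG-I, a sensor of viral RNA.

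The 150 bases upstream of the annotated start are shown for the 4 of 5 members with an entry in the RefSeq promoter table (build GRCm38.p6), because ISGF3 binds a short repeated motif that lies in the promoters of many interferon targets. The windows are chr4:156200819-156200968 on the minus strand for Isg15, chr2:84798678-84798827 on the plus strand for Ube2l6, chr6:57580842-57580991 on the plus strand for Herc6 and chr11:88999253-88999402 on the plus strand for Trim25. Each is written 5′ to 3′ along its gene, and capitals mark matches to the core of the interferon-stimulated response element (ISRE).
Isg15: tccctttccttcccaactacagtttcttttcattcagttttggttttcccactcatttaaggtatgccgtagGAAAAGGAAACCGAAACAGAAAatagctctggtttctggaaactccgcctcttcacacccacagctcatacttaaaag
Ube2l6: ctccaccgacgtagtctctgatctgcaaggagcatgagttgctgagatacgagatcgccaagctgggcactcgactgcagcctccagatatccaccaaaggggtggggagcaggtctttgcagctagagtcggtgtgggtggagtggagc
Herc6: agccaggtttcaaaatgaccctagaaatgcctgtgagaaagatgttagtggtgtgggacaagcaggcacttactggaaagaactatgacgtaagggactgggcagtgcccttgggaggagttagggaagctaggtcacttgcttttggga
Trim25: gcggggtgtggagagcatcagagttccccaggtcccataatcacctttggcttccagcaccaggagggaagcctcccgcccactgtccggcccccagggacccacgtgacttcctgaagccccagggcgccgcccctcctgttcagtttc

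The ISRE core was searched as GAAANNGAAA on both strands of the 300-base windows that the table holds (250 bases before the start and 50 after). Isg15 had 3 overlapping matches, at bases -78 to -69, -72 to -63 and -66 to -57 from the start. The other 3 windows had no match to these letters. Of all 32851 windows in the table, 1131 (3.44%) held the core. The GAS motif, searched as TTCNNNGAA, was in none of the 4 members' windows and in 2726 (8.30%) of all windows. The core was in 13 of 32 windows of other interferon-stimulated genes, in 0 of 18 windows of other ubiquitin-like modifiers and their enzymes, and in 0 of 6 windows of the 10 genes whose profiles were most like that of Isg15. A match is a run of letters in a window, not a site shown to be bound, and no binding was measured here.

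The libraries held 1868640 to 2582800 expected counts, which RSEM estimates as reads per gene, and 3 counts corresponded to 1.16 to 1.59 CPM (counts scaled to library size). The targeted gene Tet1 had 158 and 153 CPM in the siTet1 libraries of pre3 and pre2-2, 249 and 245 CPM with control siRNA, and 204 and 249 CPM untransfected. It fell with siTet1 against control siRNA (log2 fold change -0.67, SE 0.13, adjusted p = 0.00432 in edgeR's quasi-likelihood test). Fibroblast markers and some of the pluripotency markers were present. Col1a1 ranged from 365 to 2045 CPM, Pou5f1 from 1037 to 6590 CPM and Sox2 from 380 to 493 CPM, while Nanog stayed at 3.59 CPM or below. Lin28a, Fut4, Zfp42 and Utf1 were low too, with at most 1.01, 1.51, 5.82 and 14.9 CPM. The other listed pluripotency markers, Sall4, Epcam and Cdh1, had at least 33.7, 32.4 and 52.5 CPM.

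Isg15, the modifier itself, had 5.30 and 20.5 CPM in the siTet1 libraries of pre3 and pre2-2, 12.9 and 74.2 CPM with control siRNA, and 0 and 2.59 CPM in untransfected cells. Within each line the order was the same, with control siRNA highest, siTet1 between and untransfected lowest. The lowest control siRNA library (pre3) still lay below the highest siTet1 library (pre2-2), so these groups overlap when the lines are not separated. The untransfected groups overlapped with neither. Isg15 passed the filter through its transfected libraries, as both untransfected libraries lay below the minimum count of 10. Isg15 fell with siTet1 against control siRNA (log2 fold change -1.71, SE 0.28, adjusted p = 0.00077). The ratio was 0.416 in pre3 (95% counting interval 0.177 to 0.902) and 0.277 in pre2-2 (0.193 to 0.390). Intervals and floors given here cover counting error only. Isg15 rose with control siRNA against no transfection (4.89, SE 0.40, adjusted p = 7.61e-09). In pre3, where the untransfected library had 0 counts, it was at least 8.31-fold higher, taken against a floor of 3 counts in that library, with an exact lower counting limit of 6.25. In pre2-2 it was 27.4-fold higher (12.9 to 69.2, 147 against 6.7 expected counts). It also rose with siTet1 against no transfection (3.17, SE 0.49, adjusted p = 0.000163). Without untransfected pre2-2, which leaves only a library at 0 counts to compare with, these fitted changes were 7.79 (adjusted p = 5.69e-07) and 6.06 (adjusted p = 0.0145), so their size depends on that library.

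Usp18, the protease that removes ISG15, followed the same order in each line. It had 1.59 and 9.79 CPM with siTet1 in pre3 and pre2-2, 4.78 and 42.3 CPM with control siRNA, and 0 and 0.774 CPM untransfected, from 3, 21, 9, 84, 0 and 2 counts. All the pre3 libraries therefore had 9 counts or fewer. Only siTet1 and control siRNA pre2-2, with 21 and 84 counts, reached the filter's minimum count of 10. Usp18 was thus tested only through libraries where it was high. That limits its line call and its calls against no transfection. Usp18 fell with siTet1 against control siRNA (log2 fold change -2.02, SE 0.39, adjusted p = 0.00499). The ratio was 0.333 in pre3, with an interval that includes 1 (0.0579 to 1.33), and 0.231 in pre2-2 (0.136 to 0.377). Usp18 rose with control siRNA against no transfection (adjusted p = 9.83e-07), by 93 summed counts against 2, a 54.6-fold ratio with a counting interval of 14.7 to 458. It also rose with siTet1 against no transfection (adjusted p = 0.00371), by 24 counts against 2 (13.5-fold, 3.36 to 118), a call that DESeq2 did not make (adjusted p = 0.0879). A fitted fold change against so few counts depends on the prior count, so for Usp18 against no transfection the plot of fold changes shows a model estimate, not a bound.

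**Figure D1:**
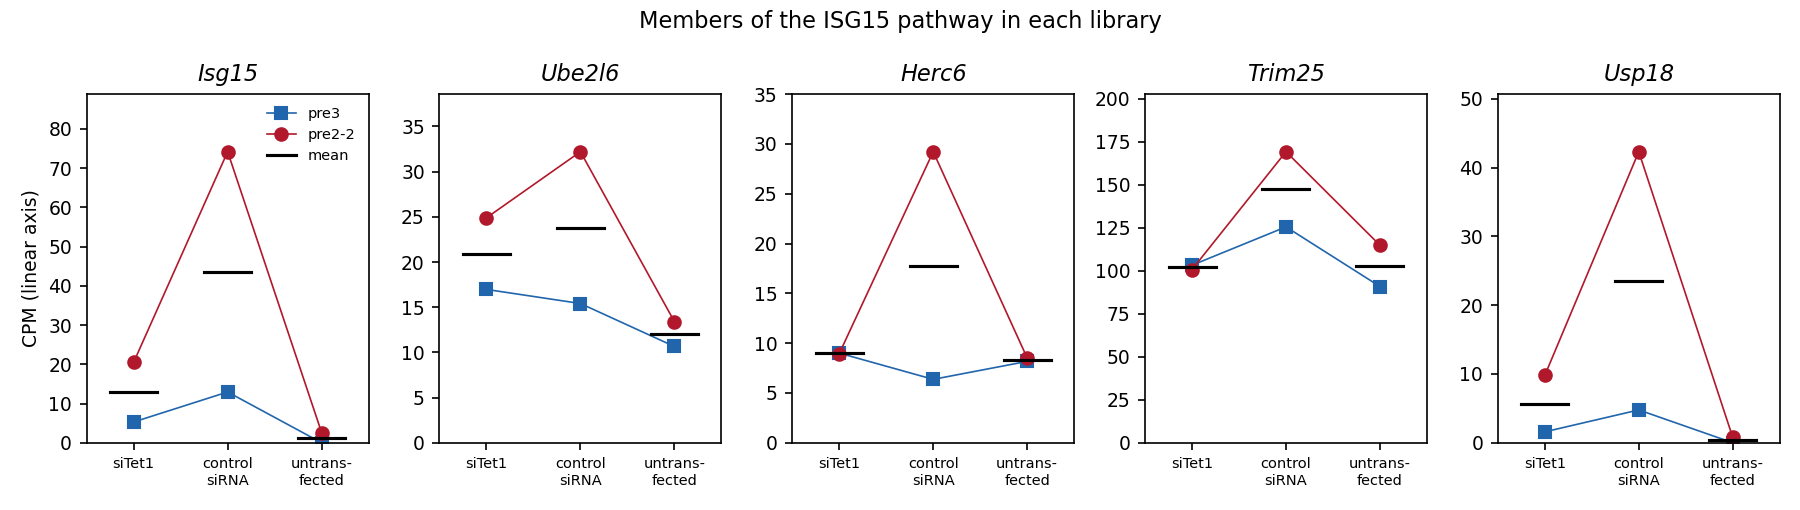
Level of each of the 5 members in CPM (vertical axis, one panel per gene) for siTet1, control siRNA and untransfected cells (horizontal axis). Points are single libraries joined within a line, and black bars are means of 2 libraries. Isg15 and Usp18 peak in the control siRNA library of pre2-2, at 74.2 and 42.3 CPM, and lie at 0 in untransfected pre3.

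Ube2l6, the E2 enzyme, had 17.0 and 24.9 CPM with siTet1 in pre3 and pre2-2, 15.4 and 32.2 CPM with control siRNA, and 10.7 and 13.4 CPM untransfected. The siTet1 values lay inside the range of the control siRNA values, and the untransfected values lay below both. The difference between siTet1 and control siRNA was -0.18 on the log2 scale (SE 0.26, adjusted p = 0.873), and the line ratios were 1.1 in pre3 (0.645 to 1.89) and 0.766 in pre2-2 (0.522 to 1.12). Control siRNA against no transfection gave a log2 difference of 0.97 (SE 0.28, adjusted p = 0.0969), with ratios of 1.43 in pre3 (0.790 to 2.65) and 2.38 in pre2-2 (1.55 to 3.71). siTet1 against no transfection gave 0.79 (SE 0.28, adjusted p = 0.103). None of these passed the threshold of 0.05. Leaving out 1 library could bring a call: control siRNA against no transfection passed without the siTet1, control siRNA or untransfected library of pre3 (adjusted p = 0.0458, 0.0448 and 0.00961), and siTet1 against no transfection passed without untransfected pre3 (0.0259).

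Herc6, the mouse ISG15 ligase, had 9.0 and 8.95 CPM with siTet1 in pre3 and pre2-2, 6.37 and 29.2 CPM with control siRNA, and 8.17 and 8.51 CPM untransfected. The control siRNA library of pre2-2 stood alone, with 58 counts where the other 5 libraries had 12 to 22.01. In pre3 the siTet1 to control siRNA ratio was 1.41 (0.636 to 3.24) and the control siRNA to untransfected ratio 0.779 (0.336 to 1.76). In pre2-2 the same ratios were 0.303 (0.170 to 0.517) and 3.43 (2.07 to 5.89). Across both lines neither comparison passed the test: the log2 differences were -0.93 (SE 0.41, adjusted p = 0.393) and 1.05 (SE 0.41, adjusted p = 0.337). Without the control siRNA library of pre3 both passed, at -1.71 (adjusted p = 0.0177) and 1.79 (adjusted p = 0.00402), and without that of pre2-2 both changed sign, to 0.47 (adjusted p = 0.976) and -0.38 (adjusted p = 1.00). Without untransfected pre2-2 or untransfected pre3 the first was -0.98 either way, because both fits rest on the same siRNA libraries. It passed only without untransfected pre2-2. The second also passed without untransfected pre3 (1.52). Of the 50-base words in Herc6 transcripts, 23.8% also occur in another gene model of GENCODE M21, all of them on the same strand. Counted on either strand, the share was 0.295 to 10.3% for the other members, so Herc6 overlapped most with another model of that annotation. The counts were made on an earlier build, and which members' reads were shared between genes in that counting was not tested.

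Trim25, the RING ligase, was the most evenly expressed member, with 103.3 and 100.8 CPM with siTet1 in pre3 and pre2-2, 125.6 and 169.3 CPM with control siRNA, and 90.9 and 114.9 CPM untransfected. Both control siRNA libraries lay above all other libraries. The log2 difference was -0.52 for siTet1 against control siRNA (SE 0.14, adjusted p = 0.0673) and 0.52 for control siRNA against no transfection (SE 0.14, adjusted p = 0.0751), and neither passed. In single lines the siTet1 to control siRNA ratio was 0.821 in pre3 (0.676 to 0.997) and 0.595 in pre2-2 (0.499 to 0.708). The control siRNA to untransfected ratio was 1.38 in pre3 (1.13 to 1.69) and 1.47 in pre2-2 (1.26 to 1.73). With the libraries scaled by their totals alone, both differences passed (adjusted p = 0.0437 and 0.0340), as they did in fits to the 4 libraries compared (0.000376 and 0.0388). The first also passed without siTet1 pre3 (-0.74) and without either untransfected library (-0.53). When an untransfected library is left out, the other is fitted exactly, so those fits repeat the fit to the 4 libraries compared. The second also passed without any 1 of the siTet1 and untransfected libraries (0.45 to 0.59). Its fits without a siTet1 library likewise repeat the fit to the 4 libraries compared, so these are not separate results. siTet1 against no transfection differed by -0.01 (SE 0.15, adjusted p = 0.984).

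Against control siRNA, 2 of the 5 members, Isg15 and Usp18, fell with siTet1 and none rose, where 0.434% of all genes tested were called lower (48 of 11048) and 1.15% higher. The median log2 difference was -0.93 over the members and 0.00 over all genes tested. With 5 members the median is the value of a single gene. Here it is Herc6, which was not called and rests on the control siRNA library of pre2-2. By fitted change, Usp18 stood 14th and Isg15 27th from the lowest of 11048. These calls rest on pre2-2: without its siTet1 library, Isg15 was at -1.20 (adjusted p = 0.859) and Usp18 at -1.54 (adjusted p = 1.00), and without its control siRNA library they were at -1.43 (adjusted p = 0.658) and -1.62 (adjusted p = 0.910). Both calls were also lost with DESeq2 (adjusted p = 0.351 and 0.656) and with limma voom (0.234 and 0.284).

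With control siRNA against no transfection, Isg15 and Usp18 rose and no member fell, where 1.38% of all genes tested were called higher (153 of 11048) and 0.0996% lower. The median was 1.05 over the members, again the value of Herc6, which was not called, and 0.00 over all genes. With siTet1 against no transfection, Isg15 and Usp18 rose and no member fell. Here 4.92% of all genes tested were called higher (544 of 11048) and 1.63% lower. The median was 0.79 over the members, the value of Ube2l6, which was not called, and 0.01 over all genes. The 3 treatment comparisons share libraries, so they are not independent of each other. Without the control siRNA library of pre2-2, Usp18 lost its call against no transfection (adjusted p = 0.156), and without the siTet1 or untransfected library of pre2-2 it lost its call for siTet1 (adjusted p = 0.195 and 0.365). All 6 treatment calls of Isg15 and Usp18 were lost when the cell line was left out of the model.

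**Figure D2:**
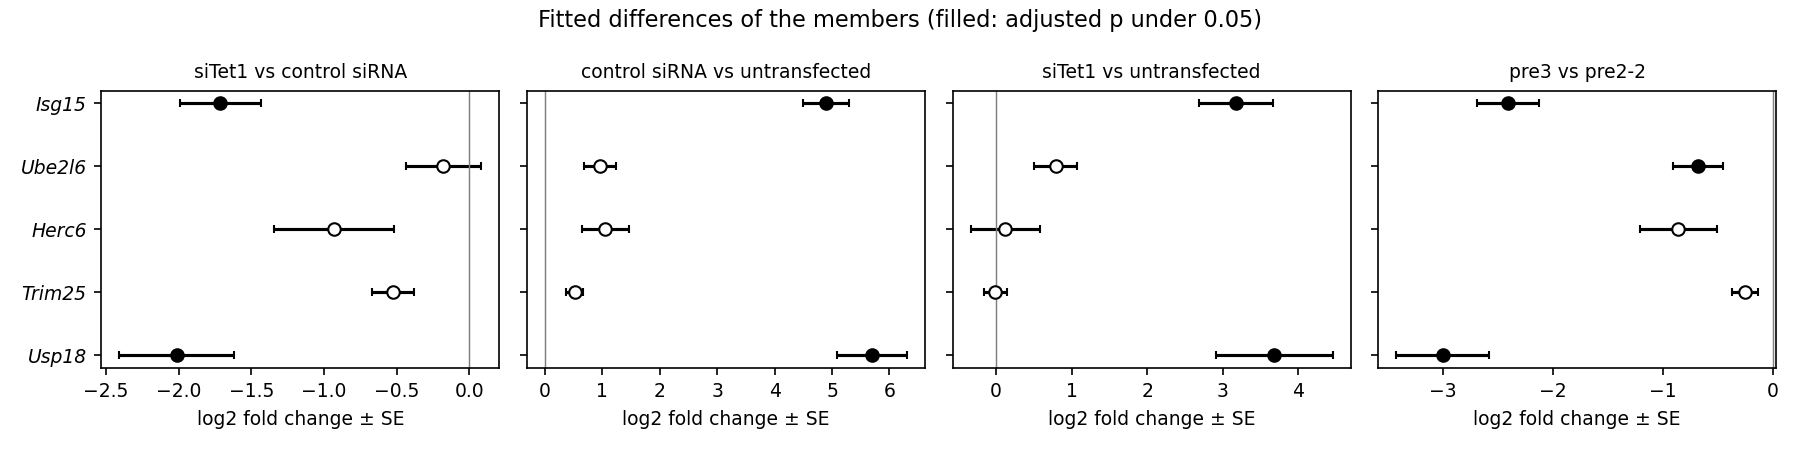
Log2 fold change of each member with its standard error in the 4 comparisons (horizontal axis, log2 scale), with filled points for adjusted p under 0.05. Isg15 and Usp18 are called in all 4 comparisons, whereas Trim25 stays within 0.52 of 0.

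Isg15, Usp18 and Ube2l6 were lower in pre3 than in pre2-2. In pre3 against pre2-2, 3 of the 5 members were called lower and none higher, where 15.8% of all genes tested were called lower and 14.4% higher, so a call is common in this comparison. Isg15 was lower in pre3 (log2 fold change -2.40, SE 0.28, adjusted p = 3.08e-07), as was Usp18 (-3.0, SE 0.42, adjusted p = 4.18e-06). Usp18 passed the count filter only through pre2-2 libraries, where it was high, so its line call is a description. Under siTet1, Isg15 in pre3 was 0.258 of its pre2-2 level (0.116 to 0.521), and under control siRNA it was 0.172 (0.107 to 0.266). Ube2l6 was lower by less (-0.68, SE 0.23, adjusted p = 0.0233). That call was lost without the siTet1 library of pre2-2 (adjusted p = 0.0501), without its control siRNA library (0.348) or without the control siRNA library of pre3 (0.360), and with DESeq2 (-0.67, adjusted p = 0.281). Without the control siRNA library of pre2-2, Usp18 also just missed the threshold (-2.66, adjusted p = 0.0539). Herc6 (-0.86, SE 0.35, adjusted p = 0.0680) and Trim25 (-0.25, SE 0.12, adjusted p = 0.109) did not pass, although Herc6 did when any 1 of the siTet1 and untransfected libraries was left out (-1.24). In the line comparison, leaving out either library of a treatment leaves the same other libraries to compare. Such pairs of fits are therefore not separate results. Without the control siRNA library of pre3 or of pre2-2, the Herc6 line difference was near 0 (-0.00040, adjusted p = 0.999, and -0.020, adjusted p = 0.984).

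Whether the lines answered transfection differently was tested by the product of line and transfection, with both siRNA libraries of a line as its transfected libraries. By edgeR, none of the 5 members was called, at adjusted or unadjusted p under 0.05, where 0.00905% of all genes tested were called (1 of 11048). DESeq2 and limma voom also called no member. The standard errors were wide, 4.31 around 3.15 for Isg15 and 2.09 around 0.79 for Usp18, which had no counts in untransfected pre3. In this model any difference between siTet1 and control siRNA also enters the spread, and Isg15 and Usp18 differed between them. A difference between lines of several-fold was therefore not detectable for these genes.

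Per length, as TPM (RSEM's share of transcripts scaled up), the proportions of the pathway moved with treatment. Isg15 stood at 14.2 and 58.1 TPM with siTet1 in pre3 and pre2-2, at 34.8 and 208 TPM with control siRNA, and at 0 and 7.03 TPM untransfected. In control siRNA pre2-2 it was the most abundant member, and it ranked 768th of 20325 genes in that library. In untransfected cells Trim25 led with 31.2 and 42.1 TPM, followed by Ube2l6 with 14.7 and 19.7 TPM. The members together held 81.5 and 150 TPM with siTet1, 111 and 384 TPM with control siRNA, and 48.8 and 73.1 TPM untransfected. Isg15 made up 17.4 and 38.7% of that sum with siTet1, 31.4 and 54.3% with control siRNA, and 0 and 9.63% untransfected. Herc6 stayed at 2.44 to 11.7 TPM in the 6 libraries. With siTet1 and with control siRNA, Trim25 led in pre3 and Isg15 in pre2-2, so the order of these genes did not hold across the lines.

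**Figure D3:**
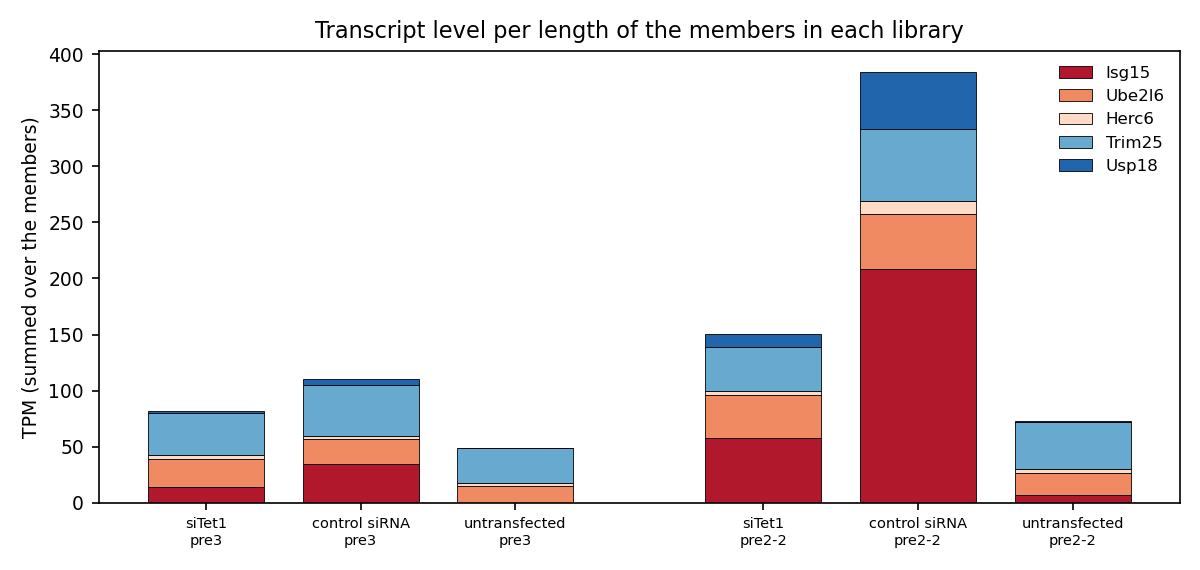
Summed level of the 5 members in TPM (vertical axis, bars from 0), stacked by gene, for each treatment in pre3 and in pre2-2. The control siRNA bar of pre2-2 is the tallest at 384 TPM, of which Isg15 is 54.3%.

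Uba7, the E1 enzyme that activates ISG15, was too low to be tested, with 2 and 6 counts with siTet1 in pre3 and pre2-2, 0 and 17 with control siRNA and 0 and 2 untransfected. Its 17 summed counts with control siRNA against 2 untransfected gave a ratio of 9.98 (2.37 to 89.1), and all 17 came from pre2-2. For siTet1 against control siRNA, 8 counts against 17 gave 0.451 (0.169 to 1.1), an interval that includes 1. Arih1, whose human counterpart HHARI has been described as an ISG15 ligase, kept to 149 to 167 CPM in all 6 libraries (siTet1 against control siRNA -0.13, adjusted p = 0.808). Of the 10 listed genes of ISG15 machinery outside the members, 9 were tested and none was called by edgeR for siTet1 against control siRNA or for control siRNA against no transfection. Usp13, a deubiquitinase, rose with siTet1 against no transfection (1.04, SE 0.22, adjusted p = 0.00416).

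Several transcription factors of interferon signalling also changed. Of 17 tested genes among ISGF3 subunits, interferon receptors and their regulators, 4 fell and 1 rose with siTet1 against control siRNA, with a median of 0.09. Over all genes tested, 0.434% were called lower and 1.15% higher. Irf7, an interferon-induced factor, fell (log2 fold change -1.99, SE 0.29, adjusted p = 0.000308) and had 3.71 and 16.8 CPM with siTet1 in pre3 and pre2-2, 11.1 and 72.2 CPM with control siRNA, and 0 and 2.32 CPM untransfected. The ISGF3 subunits Irf9 (-1.05, SE 0.21, adjusted p = 0.00688) and Stat2 (-1.12, SE 0.28, adjusted p = 0.0396) fell too. Stat2 was at 14.3 and 20.0 CPM with siTet1, 18.6 and 58.4 CPM with control siRNA, and 18.9 and 21.3 CPM untransfected. As with Isg15, its highest library was the control siRNA library of pre2-2. The gene that rose was Socs3, a feedback inhibitor of cytokine signalling (0.61, SE 0.14, adjusted p = 0.0210).

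With control siRNA against no transfection, 1.38% of all genes tested were called higher. Of the same 17 genes, 3 rose and none fell, with a median of 0.16. They included Irf7 (5.05, SE 0.42, adjusted p = 7.61e-09) and Irf9 (1.35, SE 0.21, adjusted p = 0.000348). Stat2 did not pass (0.90, SE 0.27, adjusted p = 0.118). The receptor subunits Ifnar1 (0.05, SE 0.17, adjusted p = 0.967) and Ifnar2 (0.16, SE 0.26, adjusted p = 0.927) did not pass either. The few type I interferon genes that were listed were barely seen: Ifnb1, Ifna2 and Ifna4 had 0 counts in all 6 libraries, and Ifnz had at most 2.25. Other type I interferon genes were not examined. At this depth a gene at 0 counts may have been at up to 1.16 to 1.59 CPM.

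Among 13 tested partners of RIG-I and Trim25, 1 fell and none rose with siTet1 against control siRNA (median -0.12), and 2 rose and none fell with control siRNA against no transfection (median 0.02). Over all genes tested, 0.434% were called lower in the first comparison and 1.38% higher in the second. Ddx58, which encodes RIG-I, the substrate of TRIM25, fell with siTet1 (-0.72, SE 0.16, adjusted p = 0.0148) and rose with control siRNA (0.92, SE 0.16, adjusted p = 0.00102). Its levels were 63.5 and 80.6 CPM with siTet1 in pre3 and pre2-2, 87.5 and 153 CPM with control siRNA, and 57.7 and 67.7 CPM untransfected. Ifih1, which encodes the related sensor MDA5, rose with control siRNA (2.54, SE 0.44, adjusted p = 0.00104). Mavs, the adaptor of both sensors, differed by -0.24 for siTet1 against control siRNA (SE 0.16, adjusted p = 0.636).

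**Figure D4:**
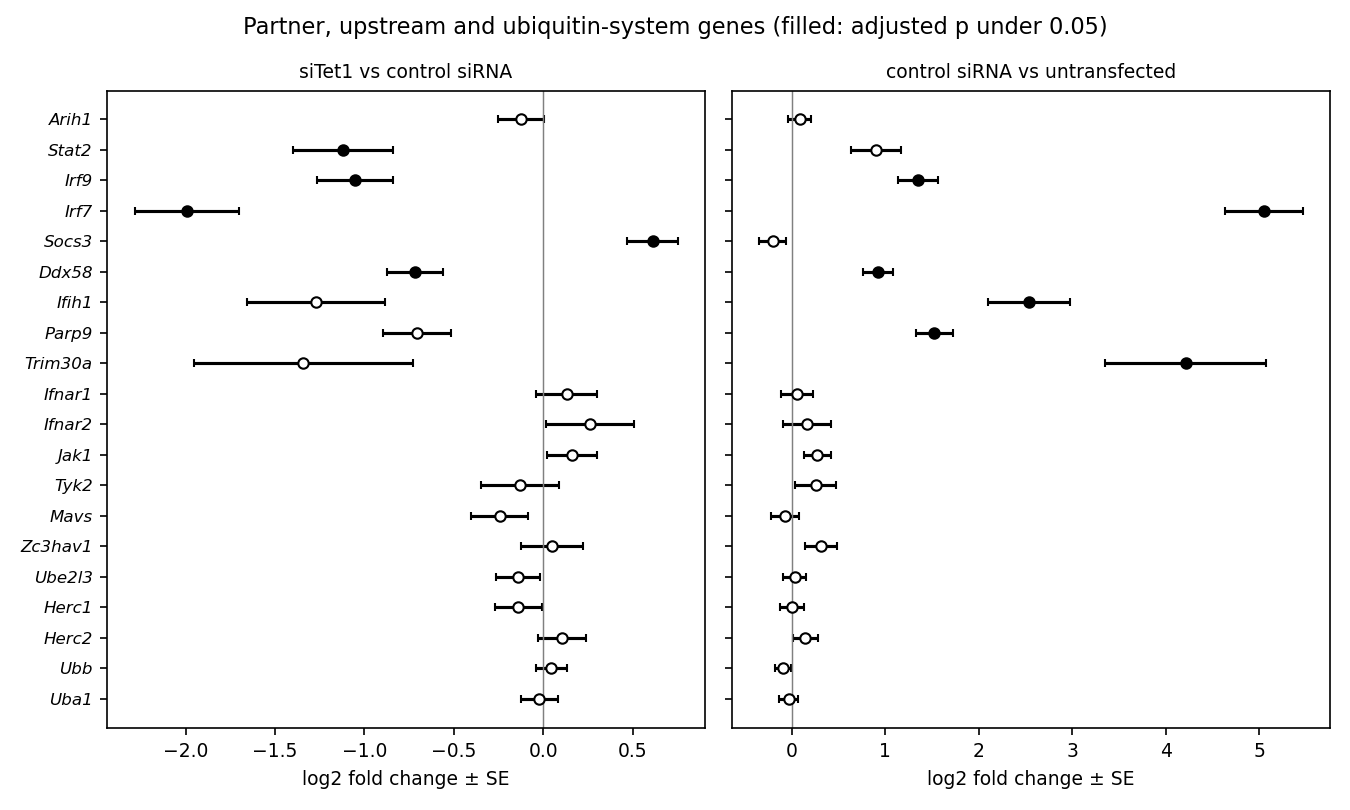
Log2 fold change with standard error (horizontal axis) of genes that act with the members, for siTet1 against control siRNA and control siRNA against no transfection, with filled points for adjusted p under 0.05. Irf7, Irf9 and Ddx58 are called in both panels, while Ubb and Uba1 lie within 0.15 of 0.

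Other ubiquitin-like systems gave no calls. Of 26 tested genes for ubiquitin, SUMO, NEDD8 and other modifiers and their E1 enzymes, none was called by edgeR in the 3 treatment comparisons, with medians of 0.01 for siTet1 against control siRNA, -0.02 for control siRNA against no transfection and -0.05 for siTet1 against no transfection. The polyubiquitin gene Ubb stayed between 2422 and 2620 TPM in the 6 libraries. Of 33 tested ubiquitin-specific proteases other than Usp18, none was called in those comparisons. These do not include Usp13, which was counted with the ISG15 machinery and rose with siTet1 against no transfection. Of 21 tested related ligases and E2 enzymes, none was called for siTet1 against control siRNA. With control siRNA against no transfection 2 rose, where 1.38% of all genes tested were called higher. They were Parp9 (1.53, SE 0.20, adjusted p = 3.16e-05), a partner of the DTX3L ligase, and Trim30a, whose 32 summed counts against 2 gave a ratio of 18.8 (4.79 to 162). Ube2l3, the closest relative of Ube2l6, differed by -0.14 (SE 0.12, adjusted p = 0.758) and 0.03 (SE 0.12, adjusted p = 0.974). Of 3 tested partners of free ISG15 and Usp18, Stat2 was the only one called for siTet1 against control siRNA, and the integrin subunit Itgal, part of the human receptor for free ISG15, had at most 3 counts in a library.

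The members also differed in how alike their profiles were over the 6 libraries, which share lines and treatments, so the correlations of log2 CPM are descriptions only. Isg15 and Usp18 were closest (Pearson r = 0.977) and Isg15 and Herc6 least alike (r = 0.649). Among all other genes tested, the 10 most like Isg15 began with Irf7 (r = 0.997) and Oasl2 (r = 0.990) and also held Parp10, Parp9 and Oas2. The list depends on the scale: 6 of the 10 stayed among the top 10 with a prior count of 0.5, and 6 with log2(TPM + 1). Oas2, a double-stranded RNA sensor, had 27.5 and 79.3 CPM with siTet1 in pre3 and pre2-2, 73.2 and 181 CPM with control siRNA, and 2.04 and 9.67 CPM untransfected. The remaining genes of the 10 were Gmcl1, Slc35f5, Sumf1, BC031181 and Erlin1. Of these, Gmcl1 spanned only 25.5 to 34.7 CPM and Sumf1, with the widest span, 22.5 to 44.3 CPM, so a high r does not mean a like range. None of these remaining genes was called in a treatment comparison. Trim25 had other neighbours: Dyrk2 (r = 0.997), 0610007P14Rik, Ddx52, Gmfb and Mettl6, none of which was called in a treatment comparison.

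Markers of other cell types were measured beside these differences. The summed level of 8 fibroblast markers was 1030 and 2897 CPM with siTet1 in pre3 and pre2-2, 925 and 3584 CPM with control siRNA, and 762 and 1456 CPM untransfected. Of the 7 fibroblast markers tested, 4 rose with control siRNA against no transfection, with Col1a1 at 0.94 and Thy1 at 0.86 on the log2 scale. Over all genes tested, 1.38% were called higher there. In pre3 against pre2-2, 6 fibroblast markers were lower, where 15.8% of all genes were called lower and 14.4% higher. Those shares apply to the line counts below too. The part of the fibroblast markers in the Isg15 and Usp18 differences was not tested. Most blood cell markers were low. The macrophage markers Lyz2 and Cd68 reached 24.0 and 10.6 CPM, inside the range of Isg15 (0 to 74.2 CPM), and their part in these differences was not tested. Ptprc, the pan-leukocyte gene CD45, had at most 6 counts in a library, and Laptm5 made up most of the summed 172 to 329 CPM. Of the 4 plasmacytoid dendritic cell markers, Siglech, Tlr7 and Irf8 were under 1 CPM in every library. The fourth, Bst2, which is also an interferon-stimulated gene, had 85.9 to 248 CPM and rose with control siRNA against no transfection (0.85, SE 0.18, adjusted p = 0.0107). The 4 endothelial markers summed to 26.5 and 80.7 CPM with siTet1 in pre3 and pre2-2, 33.4 and 77.6 CPM with control siRNA, and 32.2 and 102 CPM untransfected. All 3 of those tested were lower in pre3 than in pre2-2 (median -1.65), as Isg15 and Usp18 were, and their part in the line difference was not tested. The 10 pluripotency markers summed to 6275 to 7120 CPM in pre3 and to 1762 to 2022 CPM in pre2-2. Pou5f1 made up most of each sum, with 5767 to 6590 CPM in pre3 and 1037 to 1203 CPM in pre2-2. The sums therefore do not show the direction of the other markers. Of the 6 pluripotency markers tested, 4 were called lower in pre3 than in pre2-2 and 1 higher.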

How the data were processed

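RNA was extracted with Trizol and made into TruSeq libraries from 6 samples, per the labels. The authors deposited an expected count and a fraction per gene symbol and library. RSEM 1.1.21 and build mm9 are named in the submitters' processing notes; the aligner and the use of strand are not given in the sources used here. Between 18.7 and 21.4% of expected counts were not whole (tolerance 0.005). The deposited fraction is the share of transcripts from a gene and was multiplied up to TPM. A deposited TPM table of the whole series repeats the fractions, has a column name that matches no sample title (siTet2), and was not used here.

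The expected counts, rounded to whole numbers, were fitted in R 4.3.3 with the quasi-likelihood model of edgeR 4.0.16, holding line and treatment over all 6 libraries. Libraries were scaled by TMM (factors 0.983 to 1.01). A minimum count of 10 in filterByExpr, grouped by treatment, left 11048 genes, over which the two-sided p-values were adjusted (Benjamini-Hochberg). Genes at adjusted p under 0.05 were called. This fit left 2 residual degrees of freedom per gene against 23.2 borrowed from all genes. The spread used for a gene therefore comes mostly from other genes. A standard error is the size of the log2 change divided by the root of its F statistic. The interaction model held line, transfected or not, and their product. An adjusted p with no tool named is from edgeR; the alternatives used DESeq2 1.42.0 and limma 3.58.1. The smallest p of an exact permutation test of 2 libraries against 2 is 0.333. Ratios within a line use CPM with exact conditional 95% intervals on rounded counts, and floors use 3 counts. The procedure was also run on simulated data, where only genes with higher counts were changed and all genes had the same spread. That run does not cover members with few counts, such as Usp18.

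The line is the block, because libraries of a line come from the same cells: they correlated across genes at 0.953 to 0.975 within a line and at 0.883 to 0.938 between lines. Alternatives were other scalings (RLE, library totals), no filter or a minimum count of 30, DESeq2, limma voom, no block, the 4 libraries compared alone, and each library left out; leaving libraries out of the interaction was added after seeing the data. Named genes were all members, Tet1, listed partners that passed the test in siTet1 vs control siRNA or control siRNA vs untransfected, Uba7, Arih1, Stat2 and Irf9, the 10 genes most like Isg15 and the 5 most like Trim25. Some genes counted in the lists are not reported by name here. Other genes named were chosen after their values were seen. The members and gene lists were chosen with earlier results of these data known. Motifs were searched in promoter sequences of RefSeq (GRCm38.p6), a later build than that of the counts.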

Additional observations from a re-analysis of the deposited data

Results flagged for a closer look

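Some members moved in opposite directions in the 2 lines. Each line has 1 library per treatment, so these differences between the lines were not tested. For Herc6, siTet1 against control siRNA gave a log2 ratio of 0.50 in pre3 and -1.71 in pre2-2, a difference of 2.21. For Herc6, control siRNA against no transfection gave -0.36 in pre3 and 1.78 in pre2-2, a difference of -2.14. Both of these rest on the same control siRNA libraries. For Ube2l6, siTet1 against control siRNA gave 0.14 in pre3 and -0.37 in pre2-2, a difference of 0.51, and the counting interval of each ratio includes no change. For Trim25, siTet1 against no transfection gave 0.18 in pre3 and -0.19 in pre2-2, a difference of 0.37, again with both counting intervals including no change.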

How the results depend on the processing

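The number of members called was 2 in each treatment comparison, 3 between the lines and 0 for the interaction. It stayed within 1.5 times of these with RLE factors and with library totals. Without a filter, control siRNA against no transfection called 4. The minimum count of 30 left Herc6 and Usp18 untested and gave 1 call in each treatment comparison. DESeq2 gave 0 for siTet1 against control siRNA and 1 for siTet1 against no transfection, and limma voom gave 0 for siTet1 against control siRNA. Without the replicate block, the 3 treatment comparisons gave 0 calls each. With the replicate block and only the 4 libraries compared, siTet1 against control siRNA gave 4 and siTet1 against no transfection 1. Usp18 had too few counts to be tested in the fits with untransfected cells, and the 2 calls for control siRNA against no transfection were then Isg15 and Trim25. Leaving out 1 library at a time, the calls ranged from 0 to 4 for siTet1 against control siRNA, 1 to 5 for control siRNA against no transfection, 1 to 3 for siTet1 against no transfection and 1 to 4 between the lines. The interaction stayed at 0 in the 4 leave-one-out fits that could be made; leaving out an untransfected library left nothing to fit. Over all genes, siTet1 against control siRNA called 0 (no block) to 632 (without untransfected pre2-2), control siRNA against no transfection 0 (no block) to 732 (without untransfected pre3), siTet1 against no transfection 0 (no block) to 1900 (without untransfected pre3), and pre3 against pre2-2 1429 (DESeq2) to 3631. Without a filter or with library totals, Trim25 passed in both comparisons with control siRNA and Herc6 between the lines, and without a filter Ube2l6 passed for control siRNA against no transfection. Isg15 and Usp18 kept their direction in every treatment and line alternative run.

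A few differences near 0 or resting on 1 library changed sign, and the cause was not tested. For siTet1 against no transfection, Trim25 (-0.01) was 0.010 with library totals, 0.0023 with the minimum count of 30, 0.05 without untransfected pre2-2, and between -0.22 (without siTet1 pre3) and 0.21 (without siTet1 pre2-2). In that comparison Herc6 (0.12) was -0.41 without siTet1 pre3, and between -0.63 (without untransfected pre2-2) and 0.86 (without siTet1 pre2-2). Without control siRNA pre2-2, siTet1 against control siRNA was 0.18 for Ube2l6 and 0.47 for Herc6, and control siRNA against no transfection was -0.38 for Herc6; without control siRNA pre3 these 3 were -0.44, -1.71 and 1.79, the other ends of their leave-one-out ranges. The interaction term of Usp18 (0.79) was -0.80 with limma voom and ranged from -0.13 (without control siRNA pre3) to 2.21 (without control siRNA pre2-2), and that of Trim25 (0.10) from -0.21 (without siTet1 pre2-2) to 0.54 (without control siRNA pre2-2), with -0.02 without control siRNA pre3. Depth limits all members but Trim25 and Ube2l6 in pre3, whose libraries held 0 to 9 counts of Usp18, 0 to 24.4 of Isg15 and 12 to 17 of Herc6. Genes outside the members were not refitted here without single libraries.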

Other observations

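Other interferon-stimulated genes were counted beside the members. Of 27 tested, 11 fell and none rose with siTet1 against control siRNA (median log2 difference -0.86, against 0.00 over all genes tested). Over all genes tested, 0.434% were called lower there. With control siRNA against no transfection 18 rose and none fell (median 1.18), where 1.38% of all genes rose. With siTet1 against no transfection 9 rose and 1 fell (median 0.38), where 4.92% of all genes rose and 1.63% fell. In pre3 against pre2-2, 18 were lower and none higher, where 15.8% of all genes were called lower and 14.4% higher. Oas2, which encodes an oligoadenylate synthetase, fell with siTet1 against control siRNA (-1.28, adjusted p = 5.33e-05 in edgeR) and rose with control siRNA against no transfection (4.42, adjusted p = 1.73e-12). Oasl2, a related gene, fell by 1.87 on the log2 scale (adjusted p = 0.000523) and rose by 4.57 (adjusted p = 1.34e-08) in those comparisons. The list was chosen with earlier results of these data known, so its direction is a description.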
